A study of Drosophila melanogaster with 8 samples.

Results

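Metallothioneins, ferritin and transferrin are the proteins with which the fly binds, stores and carries copper, zinc and iron. The genes described here are the metallothionein genes MtnA, MtnB, MtnC, MtnD and MtnE, the ferritin subunit genes Fer1HCH and Fer2LCH, the transferrin gene Tsf1 and the metal importer gene Mvl. They were chosen by name, as 9 genes, and looked up by FlyBase gene ID among the 14701 gene IDs of the authors' deposited table. A row was found for 8 of them, 1 row each, and MtnE was not analysed here. Every member passed into the description whatever its count, because no filter on low values was applied.

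The libraries compared adult mated females of the Drosophila melanogaster laboratory strains Dahomey and Oregon R, aged 10 days and kept at 25 °C on an oatmeal-molasses food. Heads and thoraxes of 60 flies were pooled into each library, with 4 libraries per strain, and the labels name no mutation, transgene or treatment in either strain. Pooling hides differences between flies, and the labels do not say whether replicate libraries stem from separate cultures, so the p-values reflect the spread of these libraries alone, which may be technical. The files hold the authors' finished comparison by DESeq2, giving for each row a mean over libraries and a log2 fold change whose standard error (SE) is listed, so values per library are not given here and errors are the authors' SE. A positive fold change is taken to mean more transcript in Dahomey, because Dahomey comes first in the table's name. No header gives the sign, and if it were the reverse, each direction stated here would flip.

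Metallothioneins are small cysteine-rich proteins that bind copper, zinc and cadmium, and in flies their genes are switched on by the transcription factor MTF-1 when metals are in excess. Ferritin is a hollow shell built of heavy-chain and light-chain subunits, encoded by Fer1HCH and Fer2LCH; the heavy chain oxidises iron and the light chain helps to deposit it, and in insects ferritin passes through the secretory pathway. Transferrin 1 is an iron-binding protein of the hemolymph, made largely in fat body, that carries iron between gut and fat body. Mvl, short for Malvolio, is the fly relative of the mammalian NRAMP transporters and brings manganese and iron into cells.

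The strains differed in opposite directions within this group. The main metallothionein transcript measured, MtnA, was lower in Dahomey, and the rare metallothionein MtnB and both ferritin subunits were higher there. At the authors' DESeq2 adjusted p under 0.05, Dahomey had more of 3 and Oregon R more of 1 of the 6 members with a p-value, and the other two did not pass. Among all 13185 gene IDs with a p-value, 29.6% passed, with 14.8% higher in Dahomey and the same 14.8% in the other direction. Of the members 4 of 6 passed, or 66.7%, a share that rests on few genes. The members were chosen with earlier results of these data known, and all gene IDs include many of very low count, so the shares are not like for like. The median log2 fold change of the members with a p-value was 0.11, against -0.01 over all gene IDs with a p-value. The remaining pair, MtnC and Tsf1, had a fold change and an SE but no p-value in the authors' deposited table, and no call is made for them. In RNA from mixed tissue, fewer cells of a type and less RNA per cell cannot be told apart, and this holds for every difference below.

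**Figure D1:**
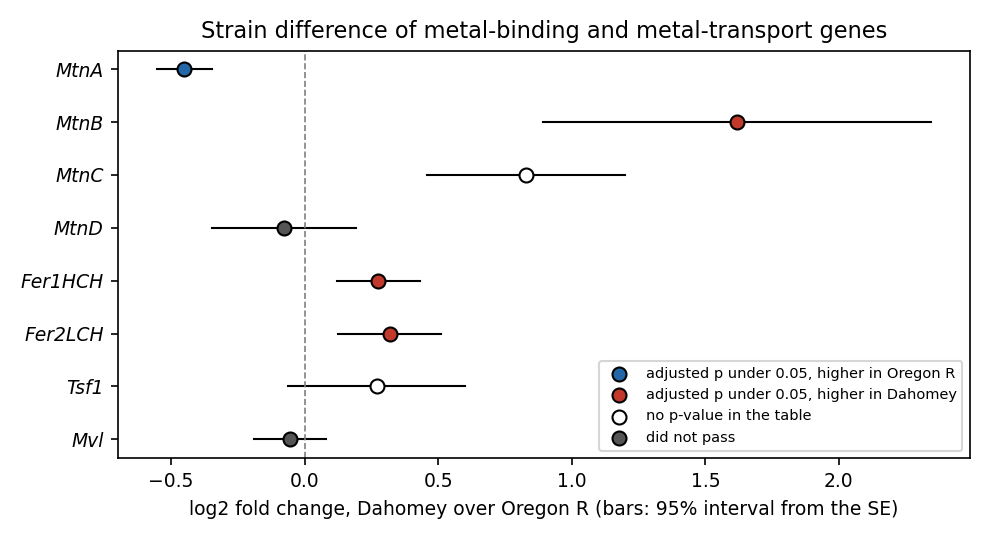
Each point is the log2 fold change of 1 gene, Dahomey over Oregon R, from the authors' deposited table, and each bar is the 95% interval computed from its SE; colours mark the adjusted p under 0.05 and open points have no p-value. MtnA lies alone to the left at -0.45, MtnB lies farthest to the right at 1.62 with the widest bar, and the ferritin subunits lie close together at 0.28 and 0.32.

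MtnA, the most abundant metallothionein transcript measured in this tissue, was 1.37-fold higher in Oregon R than in Dahomey. Its mean normalized count was 62955, rank 278 among 14100 gene IDs with a mean above 0, and the authors' deposited table gave it (FBgn0002868, arm 3R) a log2 fold change of -0.45 ± 0.053 (SE, 4 libraries per strain) with an adjusted p of 3.27e-16. The 95% interval ran from -0.55 to -0.35. The mean and the fold change together imply about 53215 normalized counts in Dahomey and 72696 in Oregon R. This was the member with the smallest error: its SE was 0.704 times the median SE of the 200 genes nearest to it in mean count, and only 11.0% of those genes had a smaller SE. In size the difference was ordinary for a gene that passed, since 45.9% of all gene IDs past the threshold had an absolute log2 fold change at least as large.

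MtnB, a metallothionein gene known for its response to cadmium, was rare in this tissue and was 3.07-fold higher in Dahomey. Its mean normalized count was 75.2, rank 10487. According to the authors' deposited table, the log2 fold change of MtnB (FBgn0002869, arm 3R) was 1.62 ± 0.37 (SE), with an adjusted p of 9.18e-05, and the 95% interval ran from 0.89 to 2.35. The implied levels were 113 normalized counts in Dahomey and 36.9 in Oregon R. Only 6.28% of gene IDs past the threshold had an absolute fold change as large, and the SE was 1.45 times the median of genes of similar mean count. The highest SE in the table was 0.423, a ceiling that fold changes shrunken toward 0 would have. The SE also fell toward the lowest counts. It was 0.416 for Fer3HCH at a mean of 3.51, 0.276 for Dic2 at 1.42 and 0.115 for Ctr1C at 0.213. Errors this small at such counts are those of shrunken fold changes, although shrinkage is not stated. The ratio of MtnB, its interval and its implied levels are therefore read as shrunken values. For so rare a gene they may understate the difference.

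MtnC and MtnD, small metallothionein genes near MtnB on arm 3R, stood at intermediate levels. MtnC (FBgn0038790) had a mean normalized count of 3576 and a log2 fold change of 0.83 ± 0.19 (SE) in the authors' deposited table, without a p-value, with implied levels of 4574 in Dahomey and 2578 in Oregon R. Its SE was 2.40 times the median of the 200 genes of nearest mean, and 97.5% of those genes had a smaller one. DESeq2 withholds a p-value from genes in which the count of a library is an outlier; whether that was the reason here is not stated, and the libraries behind the SE were not seen. MtnD (FBgn0053192) was present at a mean normalized count of 440 and did not pass, with -0.08 ± 0.14 on the log2 scale (SE; adjusted p = 0.762) in the authors' deposited table. The 95% interval of the Dahomey to Oregon R ratio for MtnD ran from 0.787 to 1.14, so ratios inside that range are not excluded with these errors.

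The pool of metallothionein transcripts measured, which leaves out MtnE, was mostly MtnA in both strains. MtnA made up 93.9% of the summed mean normalized counts of the 4 genes measured, MtnC 5.33%, MtnD 0.656% and MtnB 0.112%. Counted per kilobase of exon, which corrects for the longer MtnA transcript, MtnA made up 85.6% and MtnC 12.7% of the summed level, and the level of MtnA was 6.74 times that of MtnC. The levels implied by mean and fold change put the summed normalized counts of the 4 genes at 58331 in Dahomey and 75763 in Oregon R, a log2 ratio of -0.38. In these implied levels MtnA supplied 91.2% of the metallothionein counts in Dahomey and 96.0% in Oregon R, and MtnC 7.84% and 3.40%. Dahomey minus Oregon R, the implied normalized counts of MtnA differed by -19481 and those of MtnC by 1996. No error can be given for these sums, because the table holds no covariance between genes, and the part of MtnC rests on a fold change without a p-value. MtnB, MtnC, MtnD and MtnE are related short genes, and how reads shared between them were counted is not stated in the labels.

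**Figure D2:**
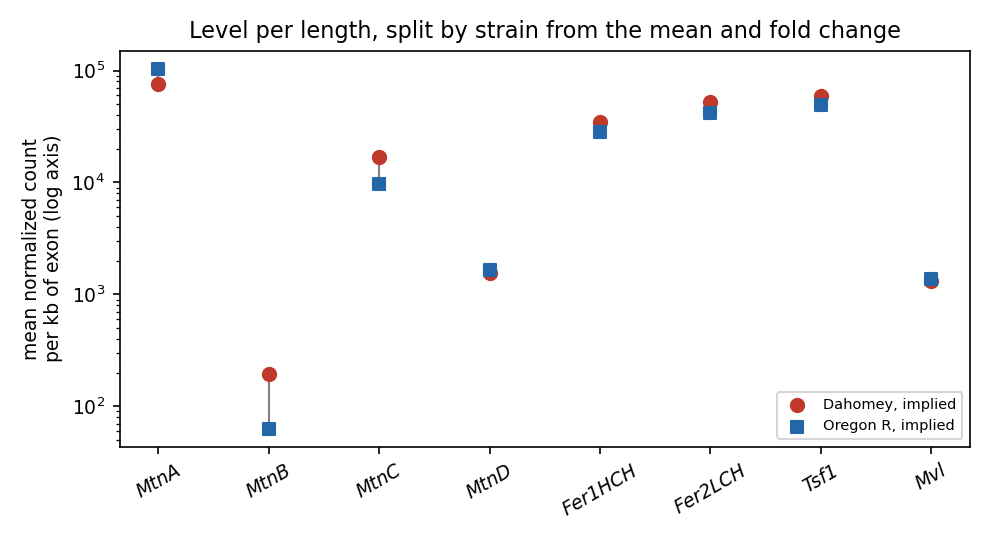
The vertical axis, on a log scale, is the mean normalized count per kilobase of exon for each gene; the circle and the square split that mean into a Dahomey and an Oregon R level with the deposited fold change. Levels span from MtnB at the bottom to MtnA at the top, and the gap between the strains is widest for MtnB, at 113 against 36.9 counts before division by length.

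Both ferritin subunit genes were higher in Dahomey, by nearly the same amount. Fer1HCH (FBgn0015222), the heavy chain, had a mean normalized count of 74932 and Fer2LCH (FBgn0015221), the light chain, one of 78008. In the authors' deposited table the log2 fold changes were 0.28 ± 0.080 (SE; adjusted p = 0.00281) for Fer1HCH and 0.32 ± 0.098 (SE; adjusted p = 0.00551) for Fer2LCH, which are ratios of 1.21 and 1.25. Their 95% intervals, 0.12 to 0.43 and 0.13 to 0.51, overlapped over most of their length. The implied normalized counts were 82063 in Dahomey and 67800 in Oregon R for Fer1HCH, and 86580 and 69436 for Fer2LCH. These are small differences within the table: 74.1% of gene IDs past the threshold had an absolute fold change at least as large as that of Fer1HCH, and 65.0% for Fer2LCH.

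The ferritin genes are neighbours that point away from each other on arm 3R, and their annotated 5′ ends overlap on opposite strands. In the BDGP6 annotation, which is not the authors' build, the exons share 118 bases, 4.97% of the exon length of Fer1HCH and 7.16% of that of Fer2LCH. The library kit named in the labels does not mark strand, so reads from this shared stretch cannot be assigned to one gene, and the counts of the genes are not fully separate. Per kilobase of exon the mean of Fer2LCH was 1.50 times that of Fer1HCH, with the union of all annotated exons taken as the length.

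Tsf1 (FBgn0022355), on the X chromosome, had the highest mean count among the members and no call. Its mean normalized count was 154472, rank 78 of 14100, although per kilobase of exon its level was 0.602 times that of MtnA. The log2 fold change was 0.27 ± 0.17 (SE), without a p-value in the authors' deposited table, and the 95% interval from -0.06 to 0.60 included 0. The point value, a ratio of 1.20, was close to those of the ferritin genes, but its SE was 2.40 times the median SE of genes of similar mean, and 94.9% of those had a smaller one. Mvl (FBgn0011672, arm 3R) had a mean normalized count of 7642 and did not pass, at -0.05 ± 0.068 on the log2 scale (SE; adjusted p = 0.646) in the authors' deposited table. The 95% interval of its ratio, from 0.878 to 1.06, was the narrowest among MtnD, Tsf1 and Mvl, the members whose intervals included no difference.

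**Figure D3:**
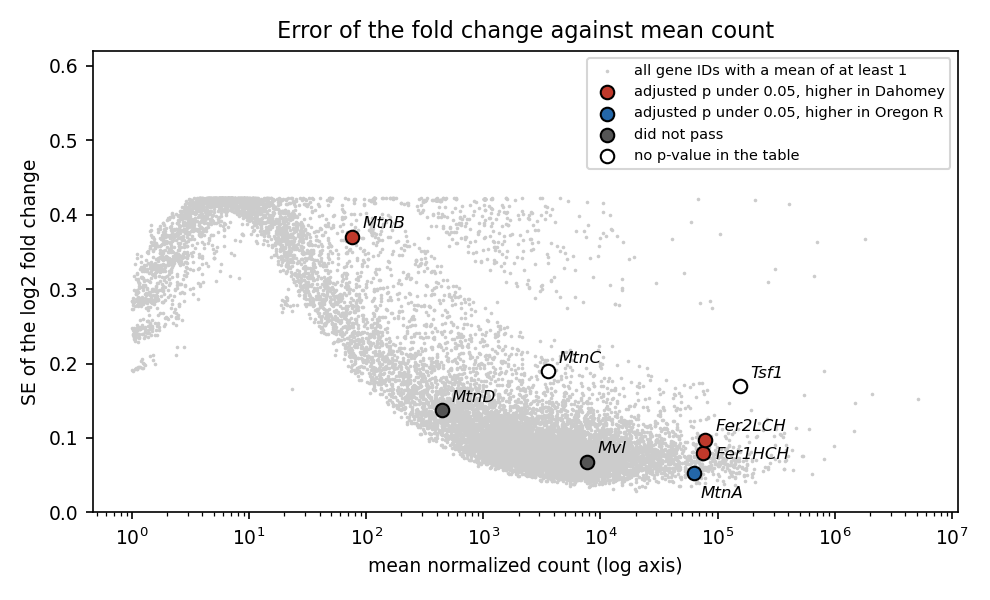
The SE of the log2 fold change is plotted against the mean normalized count (log axis) for all gene IDs with a mean of at least 1, in grey, and for the members in colour. MtnC and Tsf1, the members without a p-value, lie above the grey band at their means, with SE of 0.19 and 0.17, while MtnA lies near its lower edge at 0.053.

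Genes without a p-value had larger errors throughout the table. They numbered 915, or 6.49% of the gene IDs with a mean above 0, and their median SE was 2.29 times that of genes of similar mean, close to the ratio of 2.40 for MtnC and for Tsf1. Over rows with a mean of at least 1000 the median SE was 0.082. The submitters stated 90000000 reads per sample; depth per library was not seen.

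Genes beside the members on the chromosome were also examined. Of the 14 genes with a row that adjoin a member, 13 had a p-value and 3 passed, 1 higher in Dahomey and 2 lower. This share lay below the 29.6% that passed among all gene IDs with a p-value. Next to MtnA lie CG12947 and CG8500, at log2 fold changes of -0.16 ± 0.13 and 0.03 ± 0.087 (SE) in the authors' deposited table, neither of which passed. Of the 10 genes with a row nearest to MtnA, 5 on each side, 2 passed, in opposite directions, also below the share over all gene IDs. MtnC, MtnB and MtnD follow one another on arm 3R with other genes between them. Dic2, on one side of MtnB, was barely detected, at a mean normalized count of 1.42. The odorant receptor gene Or92a, on the other side, had 0.66 ± 0.40 (SE; adjusted p = 0.234), and MFS9, a gene of the major facilitator transporter family between Or92a and MtnD, was lower in Dahomey at -1.06 ± 0.15 (SE; adjusted p = 9.36e-11) in the authors' deposited table. The ferritin pair had CG34300 on the Fer1HCH side, at 0.47 ± 0.42 (SE; adjusted p = 0.475) from a mean of 5.82, and farther out on that side CG18404 and CG9682 had 0.87 ± 0.40 and 1.13 ± 0.40 (SE), without a p-value, in the authors' deposited table. On the Fer2LCH side, CG2217 was lower in Dahomey at -0.31 ± 0.080 (SE; adjusted p = 6.24e-04) in the authors' deposited table. Beside Tsf1, the nucleotidase gene Nt5b was higher in Dahomey at 0.27 ± 0.083 (SE; adjusted p = 0.00494) in the authors' deposited table.

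**Figure D4:**
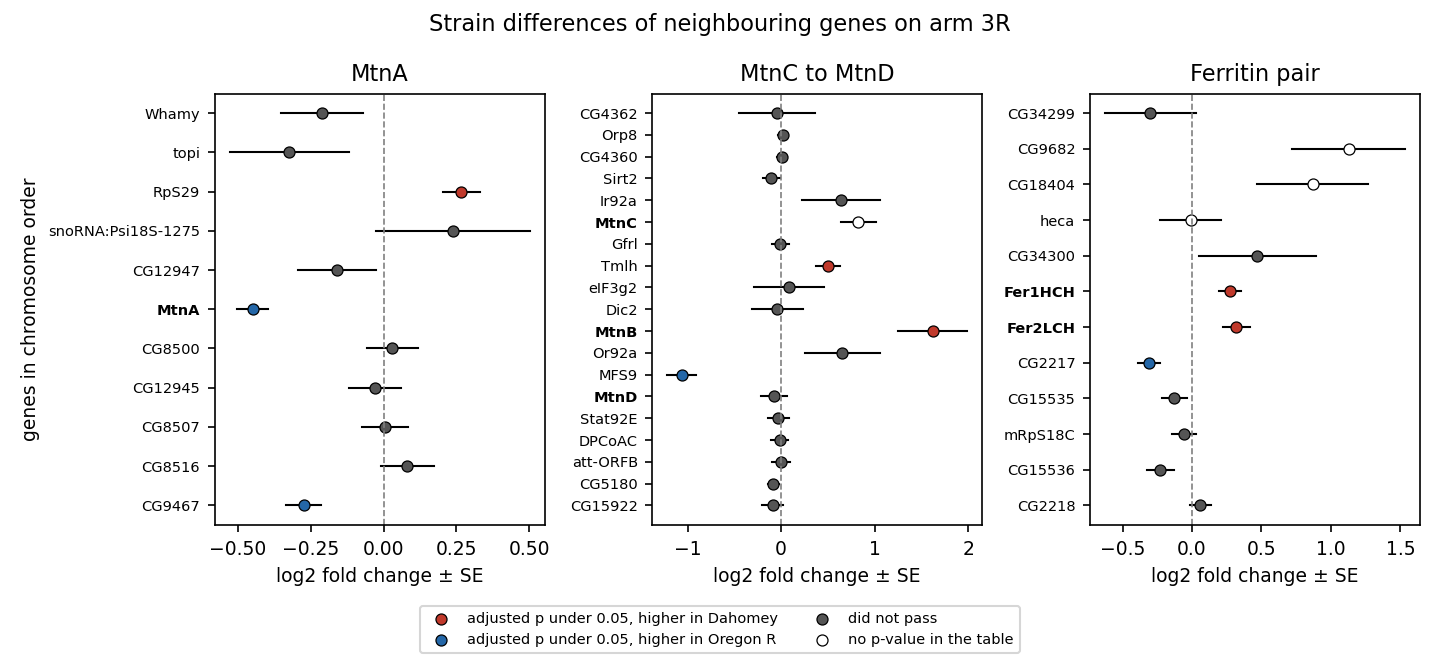
Genes with a row in the table are listed in chromosome order around MtnA, around MtnC, MtnB and MtnD, and around the ferritin pair; points are log2 fold changes, Dahomey over Oregon R, and bars are 1 SE to each side. The members are in bold: MtnA at -0.45 lies between genes at -0.16 and 0.03, and MtnD at -0.08 between MFS9 at -1.06 and Stat92E at -0.03. The ferritin pair at 0.28 and 0.32 lies between CG34300 at 0.47 and CG2217 at -0.31. No difference between a member and its neighbours was tested.

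Other genes of metal handling differed in both directions as well. In lists of iron, copper, zinc, heme and iron-sulfur genes together with MTF-1, 57 genes had a p-value; Dahomey had more of 12 and less of 17, and 28 missed the threshold. That is 50.9% past the threshold, against 29.6% over all gene IDs, and the median log2 fold change was -0.04 against -0.01. All gene IDs include many of very low count, which can hardly pass, and few of the metal genes are so rare. The lists were also written with earlier results of these data known, so the shares are not like for like. The factor that activates the metallothionein genes, MTF-1, was higher in Dahomey, at 0.31 ± 0.062 (SE; adjusted p = 7.64e-06) in the authors' deposited table. Among its metallothionein targets MtnA was lower there, MtnB was higher, MtnC had 0.83 without a p-value and MtnD had -0.08 and did not pass.

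Genes of the copper list that passed were all lower in Dahomey. Mco1, a multicopper oxidase, was placed in the iron list and was higher in Dahomey, at 0.54. Of 10 genes of the copper list with a p-value, 50.0% passed, against 29.6% over all gene IDs. As above, these shares are not like for like. In Dahomey 5 were lower, 0 were higher and 5 missed the threshold, with a median log2 fold change of -0.14. Ctr1B, a copper importer of the cell surface, was the farthest from 0, at -1.28 ± 0.085 (SE; adjusted p = 4.38e-49) in the authors' deposited table. Atox1, the chaperone that hands copper to the pump ATP7, had -0.56 ± 0.079 (SE; adjusted p = 1.98e-11) there. The others that passed were Ccs, the copper chaperone of superoxide dismutase, and Cox11 and Cox17, which bring copper to cytochrome c oxidase, at -0.16, -0.45 and -0.26; for the importer Ctr1A and the pump ATP7 the fold changes were -0.12 and 0.10 and did not pass.

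Iron genes outside the members were split, with 2 of 11 higher and 5 lower in Dahomey and 4 that missed the threshold. Their median log2 fold change was -0.29. The share past the threshold was 63.6%, against 29.6% over all gene IDs with a p-value. Both iron regulatory protein genes were lower in Dahomey: the authors' deposited table held IRP-1A at -0.38 ± 0.051 (SE; adjusted p = 2.13e-12) and IRP-1B at -0.43 ± 0.089 (SE; adjusted p = 1.50e-05). In flies IRP-1A protein can bind the iron-responsive element of ferritin heavy-chain messenger RNA, and the counts here say nothing of that binding. Mco1, a multicopper oxidase linked to iron handling, was higher in Dahomey at 0.54 ± 0.11 (SE; adjusted p = 1.97e-05), and mfrn, the mitochondrial iron importer mitoferrin, was higher at 0.12 ± 0.044 (SE; adjusted p = 0.0319) in the authors' deposited table. Of the other transferrin genes, Tsf3 was lower in Dahomey at -0.29 ± 0.088 (SE; adjusted p = 0.00544) and Tsf2, known from epithelial junctions, had -0.04 ± 0.057 (SE) and did not pass, in the authors' deposited table. Fer3HCH, the mitochondrial ferritin, was barely detected, at a mean normalized count of 3.51. The entry nemy, a cytochrome b561 gene, stood on 2 rows with opposite values in the authors' deposited table. They were -0.56 ± 0.069 at a mean of 3784 and 0.56 ± 0.056 at a mean of 3598 (SE). The first was counted, and what separates the rows is not stated. The second row also passed, and with it nemy would count as higher in Dahomey. The median of these iron genes would then be the value of Tsf2, -0.04, in place of -0.29. The counts by direction over all metal lists would change too.

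Zinc transporter genes were more often higher in Dahomey among those that passed, and heme and iron-sulfur genes went both ways. Of 15 zinc genes tested, 46.7% passed, against 29.6% over all gene IDs with a p-value. Dahomey had more of 6 and less of 1, and 8 missed the threshold, with a median log2 fold change of 0.18. ZnT35C, without a p-value, had -0.61 ± 0.22 (SE) in the authors' deposited table, and with it the median was 0.14. ZnT33D, of the zinc efflux family, had 4.73 ± 0.26 (SE; adjusted p = 7.93e-72) from a mean of 243, ZnT63C, a zinc exporter of the gut, had 0.65 ± 0.088 (SE; adjusted p = 5.03e-12) and ZnT77C had -0.75 ± 0.19 (SE; adjusted p = 4.37e-04), all in the authors' deposited table. Of 8 heme genes, 50.0% passed. Dahomey had more of 1 and less of 3, and 4 missed the threshold, at a median of -0.04. The heme oxygenase gene Ho, which breaks heme down and frees its iron, had -0.64 ± 0.084 (SE; adjusted p = 5.27e-13), the synthesis gene Urod -0.34 ± 0.055 and the synthesis gene Pbgs 0.51 ± 0.074 (SE) in the authors' deposited table. Of 12 iron-sulfur genes, 41.7% passed. Dahomey had more of 2 and less of 3, and 7 missed the threshold, at a median of -0.08. The scaffold gene IscU, with a mean normalized count of 134851, had -0.56 ± 0.12 and the ferredoxin gene Fdx1 -0.41 ± 0.080, whereas Nfs1, the cysteine desulfurase that supplies sulfur, had 0.37 ± 0.11 and CIAO1, of cytosolic cluster assembly, 0.60 ± 0.051 (SE), in the authors' deposited table.

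**Figure D5:**
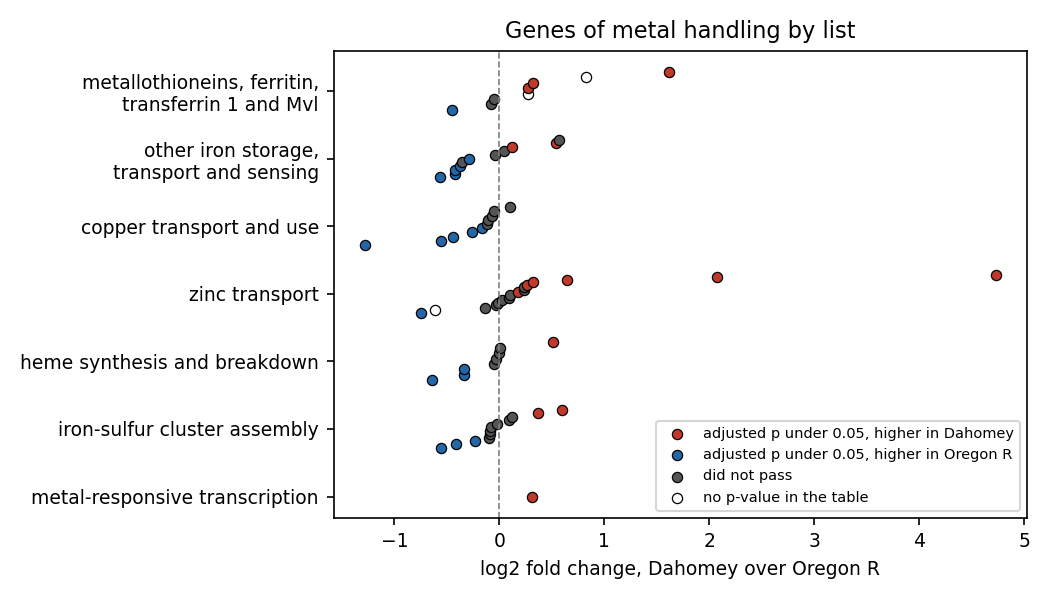
Each point is the log2 fold change of 1 gene, Dahomey over Oregon R, from the authors' deposited table, sorted within its list; colours mark the adjusted p under 0.05 and open points have no p-value. All 5 coloured genes of the copper list lie left of 0, 6 of 7 coloured zinc genes lie right of it, and ZnT33D at 4.73 lies far from the rest.

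Tissue markers were read beside these differences, because metallothioneins and ferritin are strongly expressed in the midgut and transferrin 1 in fat body. Head and flight muscle were well represented, with the opsin gene ninaE at a mean normalized count of 1452797 and the muscle myosin gene Mhc at 252776. Midgut genes were abundant too. Of 7 markers tested, 71.4% passed, against 29.6% over all gene IDs with a p-value. Dahomey had more of 1 and less of 4, and 2 missed the threshold, over a range of log2 fold changes from -8.06 to 0.81. Of the other two, without a p-value, Jon25Bi had 3.02 ± 0.21 and Mal-A1 -0.02 ± 0.28 (SE) in the authors' deposited table. The implied sums over all 9 midgut markers were 974819 in Dahomey and 1348193 in Oregon R, and a few genes weighed heavily in them. LysC was implied at 616 in Dahomey and 163873 in Oregon R, LysD at 745 and 159547, and Amy-p at 196348 and 405102. The 1 midgut marker that passed as higher in Dahomey, betaTry, was implied at 355676 and 202468. The most abundant midgut marker, the trypsin gene alphaTry, had 0.05 ± 0.072 (SE), and the amylase gene Amy-p had -1.04 ± 0.10 (SE), in the authors' deposited table. Of 4 fat body markers tested, 75.0% passed, against the same 29.6%. Dahomey had more of 3, among them the lipophorin gene Lpp at 0.39 ± 0.11 and the yolk protein gene Yp1 at 0.52 ± 0.16 (SE) in the authors' deposited table. The lipid droplet gene Lsd-1, without a p-value, had -0.33 ± 0.17 (SE) there. The implied sums over all 5 fat body markers, most of which is Yp1, were 3253627 in Dahomey and 2330424 in Oregon R. No listed marker of either tissue had a mean of 0, and the part of midgut or fat body in the differences of MtnA, MtnB and the ferritin genes was not tested.

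Blood cells and the excluded abdomen were looked at in the same way. Of 4 hemocyte markers, 0 passed the authors' DESeq2 threshold and 2 had an unadjusted p under 0.05, with fold changes from -0.33 to -0.04; Col4a1 had -0.25 ± 0.11 and Hml -0.04 ± 0.12 (SE) in the authors' deposited table. All 5 ovary and eggshell genes with a row lacked a p-value, although the germline gene osk had a mean normalized count of 11153 and the eggshell gene Cp38 one of 6166. Their SE ran from 0.36 to 0.39, a median of 4.70 times that of genes of similar mean. The Malpighian tubule gene Uro had no p-value either, at -0.48 ± 0.37 (SE) in the authors' deposited table, an SE 2.96 times that of genes of similar mean. Of the other 3 genes listed for Malpighian tubule, 0 passed at either the adjusted or an unadjusted p under 0.05, with Irk2 at -0.09 ± 0.075 and CAH3 at -0.09 ± 0.057 (SE) in the authors' deposited table.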

How the data were processed

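Poly(A) RNA of heads and thoraxes was sequenced from 4 Dahomey and 4 Oregon R libraries. The submitters' processing notes list TopHat2 2.0.7, an aligner, and DESeq2, besides bcl2fastq and FastQC, and name BDGP5 as the build; how reads were counted, and whether by strand, was not stated there. Per the file headers, the authors deposited for each row a mean signal, here read as normalized read counts, a log2 fold change with its SE, and a p-value before and after adjustment. The deposited p-values differed from a 2-sided Wald p by at most 4.05e-15. Counts per library had been planned for, so the authors' adjusted p under 0.05 replaced a count model.

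Where a gene ID had several rows, the one with the highest mean was used; no member stood on several rows or shared its values with another ID. Arms, gene order and exon lengths came from Ensembl release 115 (BDGP6), looked up by gene ID, and no coordinates are given. Implied strain levels split the mean into equal numbers of libraries by the fold change. Intervals are SE times the normal quantile for 95%. The recomputed Benjamini-Hochberg adjustment was tested on simulated data. Python 3.11.15, numpy 2.4.6, pandas 2.3.3 and scipy 1.17.1 were used.

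Members, gene lists and tests were chosen with earlier results of these data known. Named genes are all members, up to 2 genes per direction of each metal list by smallest adjusted p, MTF-1 and Fer3HCH, the 2 markers of highest mean per tissue, and the nearest neighbour with a row on each side of a member; of these neighbours, those of MtnA, MtnB and the ferritin genes, those that passed and Stat92E are given. The farther neighbours CG18404 and CG9682, and IRP-1B, Tsf2, Tsf3, ZnT35C, LysC, LysD, betaTry, Jon25Bi, Mal-A1, Lsd-1, Uro, Act88F, Ctr1A, ATP7, Ccs, Cox11 and Cox17 were named after their values were seen. Ctr1C was also named after its values were seen. The neuron markers Syt1 and nSyb had log2 fold changes of -0.37 ± 0.094 and 0.01 ± 0.073 (SE) in the authors' deposited table. Of 4 neuron markers with a p-value 1 passed, lower in Dahomey. Of 6 photoreceptor markers 2 passed, trp at -0.32 ± 0.073 and inaD at -0.36 ± 0.058 (SE), while Arr2 had -0.0016 ± 0.084. Of 4 flight muscle markers with a p-value 4 passed, 2 in each direction. Higher in Dahomey were Mhc at 0.16 ± 0.061 and up at 0.26 ± 0.048 (SE). Lower were fln at -0.50 ± 0.083 and TpnC4 at -0.77 ± 0.10 (SE). Act88F, without a p-value, had 1.25 ± 0.16. Over all gene IDs with a p-value 29.6% passed.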

Additional observations from a re-analysis of the deposited data

How the results depend on the processing

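The 4 members past the threshold stayed 4 with an adjusted p under 0.01, with Benjamini-Hochberg adjustment over 1 row per gene ID and with a mean of at least 10 required. With Bonferroni adjustment 1 member passed, MtnA, with 0 higher in Dahomey. Of the 57 other metal genes, 29 passed; with Bonferroni adjustment 18 did, 10 of them higher in Oregon R, and with an adjusted p under 0.01 25 did. Bonferroni adjustment is stricter by construction. Subtracting the median fold change of all genes, or the mean of 200 genes of similar mean, kept the direction of all 8 members measured and, with p-values recomputed, the side of the threshold of the 6 that have one; Tsf1 moved most, from 0.27 to 0.17. No member had a second row, so the choice of row could not be varied for the members. Among the other metal genes, that choice set the direction of nemy. No paired analysis was possible because the table holds no values per library; leaving out libraries and other normalizations were not run for the same reason. Rare genes such as MtnB are limited by their counts, and MtnC and Tsf1 by errors whose cause was not tested.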
